A study of Mus musculus with 29 samples.

Results

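Basal cells of the mouse bladder urothelium were compared between mice with an activated Pparg and control mice, 4 days after the last of 3 tamoxifen injections. The members are the 9 bulk RNA-seq libraries that the labels give for this time point, out of 29 samples in the whole series. They are 4 controls, labelled wild type, and 5 mutants, labelled K5VP16;Pparg+/-. All mice were adults of 8 to 12 weeks, untreated with carcinogen, and each injection held 5 mg of tamoxifen per 30 g of body weight. Mutants carried the Krt5CreERT2 driver, an mTmG reporter and a Rosa26 cassette from which Cre releases a fusion of the VP16 activation domain with Pparg1, followed by IRES-EGFP. The study's methods give the controls of the sorted cells as K5;mTmG, so that Cre, reporter and tamoxifen were shared by both groups, and elsewhere as VP16;Pparg fl/fl, and the values do not settle which applies. Gfp-positive cells were collected by flow cytometry. In mutants the cassette carries its own EGFP beside that of the reporter. The parent lines were made in 129B6 hybrid ES cells, C57BL/6N and FVB mice, and no strain is given for a library. Of the 35199 genes of the table, 16413 had at least 10 normalized counts in at least 4 of the 9 libraries and were tested.

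Pparg is a nuclear receptor that binds DNA as a heterodimer with Rxr at pairs of half-sites and is activated by fatty acid ligands. It is known as the master regulator of adipocytes, and in the urothelium it is needed for the differentiation of superficial cells. The VP16 domain makes the receptor active without a ligand. Basal cells line the basement membrane, express Krt5 and Trp63 and are held in place by hemidesmosomes. The values below are the authors' normalized counts. A gene is called when limma gave an adjusted p under 0.05 over all genes tested, and a log2 fold change is the mutant mean minus the control mean of log2(normalized count + 1), which understates the change of low genes. Libraries are numbered control library 1 to 4 and mutant library 1 to 5, in the order in which every set of values is given. Nothing pairs a column with a numbered mouse.

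The libraries held from 36520193 to 41435665 normalized counts. Reads per library could not be recovered from these values. The study's methods state a targeted depth, but the depth that each library reached is unknown. Krt5, the keratin that drives the Cre, was abundant throughout, at 94622, 100021, 91106 and 109572 normalized counts in the controls and 80458, 93817, 62918, 75938 and 92196 in the mutants. Uroplakins of superficial cells were abundant in controls too, with Upk1a at 66833 to 119386 and Upk3a at 40840 to 117051 normalized counts, so the sorted cells were not free of superficial transcripts. Y-linked genes split the libraries nearly as the genotype does. Their mean log2 level was 5.59, 11.05, 11.11 and 11.08 in the controls and 5.91, 5.16, 5.61, 5.29 and 5.58 in the mutants, so control library 1 lay with the mutants, and for control libraries 2 to 4 a difference linked to sex cannot be told apart from genotype.

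Markers of stromal cells had mostly positive log2 fold changes, and 1 of them was called. The mean log2 level of 12 fibroblast markers was 7.61, 7.83, 8.72 and 8.94 in the controls and 9.56, 8.63, 11.35, 10.23 and 9.93 in the mutants, so mutant library 2 lay among the controls. Of the 11 markers tested, 10 had a positive log2 fold change, with a median of 2.0, and Lum, a proteoglycan of connective tissue, was called. Their summed level lay between 12754 and 89822 normalized counts in controls and between 32434 and 227363 in mutants. Smooth muscle markers had a median of 1.47 (8 of 9 positive, 0 called) and endothelial markers one of 0.81 (5 of 7 positive, 0 called). Leukocyte markers were low and none was called, with a median of -0.10, summed levels of 1431 to 2380.4 in controls and 1132 to 3349 in mutants, and Cd52 at 10.7 to 46.1 normalized counts over all libraries. In bulk libraries more cells of a type and more RNA per cell cannot be told apart.

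**Figure D1:**
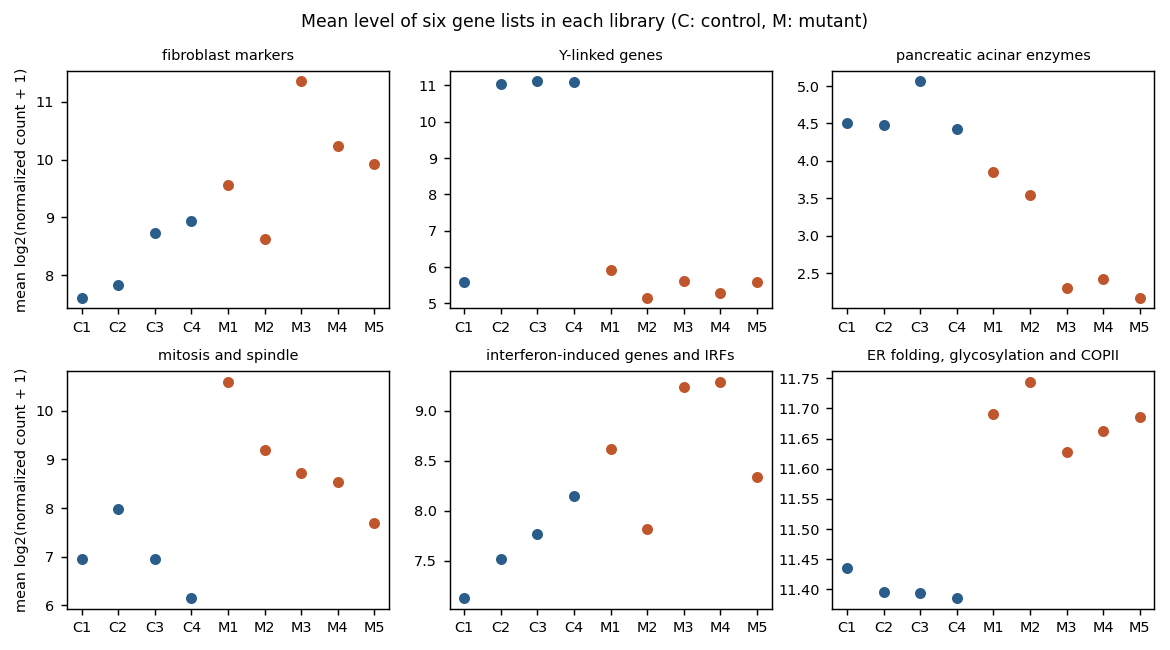
Mean of log2(normalized count + 1) over the members of 6 gene lists (y axis) in each of the 9 libraries (x axis; C1 to C4 are control libraries, blue, and M1 to M5 mutant libraries, orange). Fibroblast markers lay between 7.61 and 8.94 in controls and between 8.63 and 11.35 in mutants, Y-linked genes were high in control libraries 2 to 4 alone, and the groups were apart for the endoplasmic reticulum (ER) and pancreatic acinar lists.

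Across all genes, limma called 467 of the 16413 genes tested (2.85%). Of these, 290 were higher in mutants (1.77%) and 177 lower (1.08%), and 455 of the 467 had no overlap between the groups. For a gene that reached the filter in the controls alone or in the mutants alone, the filter itself sets the direction of a call. Without regard to the test, 767 genes lay higher in every mutant than in every control (4.67%) and 740 lay lower (4.51%). The median log2 fold change over all genes tested was 0.00, with quartiles of -0.21 and 0.27, and 50.5% of genes had a positive value. These are the shares against which the groups of genes below are to be read.

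Control library 1, the control with low Y-linked genes, can be set beside the mutants by itself. When it was left out, limma called 172 genes higher and 125 lower. The mutants exceeded control library 1 by a median of 0.95 in the 172 genes, against 1.34 over the other controls, and fell below it by a median of -0.55 in the 125 genes, against -1.00. Both comparisons use the same 5 mutants, by which these genes were chosen, so the values are a description of 1 library and no test.

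With the level of Y-linked genes (high in control libraries 2 to 4, low in the others) as a covariate, limma called 26 genes, 9 higher and 17 lower, and all 467 genes kept their direction. In the 6 libraries with low Y-linked genes, 1 control against 5 mutants, 2 genes were called and all 440 of the 467 that were tested kept their direction. The lone control is assumed there to vary as the mutants do. Both fits give the same fold change wherever both test a gene, that of the 5 mutants against control library 1, which also entered the main calls, and they differ in the estimate of the spread. They are therefore 1 contrast with 1 control and no independent support. In the 455 called genes whose groups did not overlap, the direction could not change in either fit. With the mean level of fibroblast markers as a covariate, an alternative added after the data had been seen, 171 genes were called, of which 96 were among the 467. Called genes of each group below are therefore given with the range of their log2 fold changes under the Y-linked covariate and, where stromal genes are concerned, under the fibroblast covariate. A range does not show which genes changed most between the fits.

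Genes of fatty acid oxidation and storage rose in part. Of 30 genes of the peroxisome and of β-oxidation, 26 had a positive log2 fold change, with a median of 0.31, 6 were called higher (against 1.77% of all genes) and none lower. Ehhadh, an enzyme of peroxisomal β-oxidation, rose by 1.29 and Hsd17b4, the D-bifunctional protein, by 0.44 on the log2 scale. In mitochondria, Acadvl, which oxidises very long chains, rose by 0.49, Decr1, which handles unsaturated chains, by 0.54, and Cpt2, the inner carnitine palmitoyltransferase, by 0.51. Crot, a peroxisomal carnitine acyltransferase, rose by 0.51 and Acot1, an acyl-CoA thioesterase, by 0.95, both named after their values were seen. Plin2, which coats lipid droplets, was at 12026, 12141, 11318 and 11066 normalized counts in the controls and 23264, 20075, 18868, 22870.2 and 22848 in the mutants. The groups were apart (log2 fold change 0.89, standard error 0.09, limma adjusted p = 0.00171). Dgat2, which makes triacylglycerol, rose by 0.76 and Angptl4, a secreted inhibitor of lipoprotein lipase, by 1.83. Of these 10 calls 3 held in every fit without one library (Plin2, Dgat2 and Acot1), and those lost numbered 3, 7, 6 and 6 without control libraries 1 to 4 and 1, 1, 4, 2 and 2 without mutant libraries 1 to 5, with limma adjusted p up to 0.132. Fitted with the Y-linked covariate, the absolute log2 fold changes were 0.31 to 1.96 (limma adjusted p = 0.164 to 0.648).

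A pair of called genes carried in their promoter a match to the direct repeat that Pparg and Rxr bind. The motif searched was the half-site AGGNCA repeated in direct orientation with 1 base of any kind between, on both strands, in the 300 bases from 250 before to 50 after each annotated start of RefSeq, build GRCm38.p6. It occurred in 41 of the 12012 tested genes with a promoter in the table (0.341%), in 2 of the 210 such genes called higher and in none of the 117 called lower. The stricter form with the half-site AGGTCA occurred in 5 of the 12012 and in no called gene. Matches are a description of letters and no evidence of binding. The 2 promoters are shown for this reason, 5′ to 3′ on the strand of the gene, which is the plus strand for both, with the match, which reads as the motif on the opposite strand, in capitals.
Fabp1, chr6:71199629-71199928: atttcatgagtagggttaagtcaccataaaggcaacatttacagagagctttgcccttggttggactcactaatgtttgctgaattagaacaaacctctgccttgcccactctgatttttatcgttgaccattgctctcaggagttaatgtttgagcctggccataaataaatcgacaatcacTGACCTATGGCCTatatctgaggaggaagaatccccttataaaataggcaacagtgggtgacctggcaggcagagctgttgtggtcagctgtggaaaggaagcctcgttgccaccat
Elovl1, chr4:118429451-118429750: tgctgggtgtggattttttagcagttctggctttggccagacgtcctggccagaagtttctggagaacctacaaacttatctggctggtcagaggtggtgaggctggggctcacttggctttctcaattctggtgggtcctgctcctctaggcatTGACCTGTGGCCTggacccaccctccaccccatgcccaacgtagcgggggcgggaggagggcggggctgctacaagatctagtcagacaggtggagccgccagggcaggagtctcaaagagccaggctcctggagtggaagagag

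In Fabp1 the match begins 67 bases before the start and in Elovl1 95 bases before it. Fabp1, a fatty acid binding protein best known from liver and gut, was low, at 11.3, 3.42, 1.07 and 2.79 normalized counts in the controls and 32.5, 32.4, 47.0, 71.0 and 96.6 in the mutants, and all mutants exceeded all controls. Elovl1, which elongates saturated very long chains, was at 5133, 4022, 3678 and 3584 normalized counts in the controls and 8648, 6437, 5934, 5429 and 6526 in the mutants. Its groups were apart as well. The call of Fabp1 was lost without control library 2 (limma adjusted p = 0.0523) and that of Elovl1 in 7 of 9 fits without one library, up to a limma adjusted p of 0.139. Neither was called under the Y-linked covariate, with Fabp1 at a log2 fold change of 2.08 instead of 3.51 and Elovl1 at 0.34 instead of 0.68 (limma adjusted p = 0.435 and 0.725).

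The strongest rises, taken as the 15 called genes with the smallest adjusted p, groups apart and a mean of 100 normalized counts or more in the higher group, predicted genes and pseudogenes left out, included Fabp4, Plin2 and 11 others of several functions. Pon3, a lactonase carried on lipoproteins, had the smallest p, at 1086, 929, 844 and 943 normalized counts in the controls and 2246, 2796, 2853, 2679 and 2783 in the mutants (log2 fold change 1.49, standard error 0.11, limma adjusted p = 9.06e-05). Car12, a membrane carbonic anhydrase that acidifies the outside of the cell, was at 369, 316, 467 and 422 normalized counts in the controls and 2041, 1362, 1872, 1957 and 1434 in the mutants (log2 fold change 2.13, standard error 0.17, limma adjusted p = 0.000187). In both genes every mutant lay well above every control, and the mutants differed little among themselves. Tpm2, a tropomyosin of actin filaments, rose by 1.78, Pllp, a membrane protein of the plasmolipin family, by 1.32, and Psapl1, a relative of prosaposin, by 2.10 on the log2 scale. Slc7a8, a carrier of neutral amino acids, rose by 1.30, Hjurp, the chaperone that loads the centromeric histone, by 0.97, and Smim3, a small membrane protein, by 1.25. Ttr, the carrier of thyroxine and retinol binding protein, was at 26.5, 67.7, 32.2 and 32.6 normalized counts in the controls and 202, 228, 544, 398 and 297 in the mutants (log2 fold change 3.04, standard error 0.37, limma adjusted p = 0.0037). Nxph1, a secreted ligand of neurexins, was listed at 0 in all 4 controls and at 70.2, 12.3, 186, 165 and 93.9 in the mutants. Dapl1, known from stratifying epithelia, was at 2.90, 4.68, 0 and 0.957 normalized counts in the controls and 499, 211, 86.2, 110.4 and 52.3 in the mutants. Its highest value came from mutant library 1. All 11 calls held in every fit without one library, with limma adjusted p up to 0.0259. Nxph1 and Dapl1 reached the filter in the mutants alone, so for them the filter itself sets the direction. The Y-linked covariate gave absolute log2 fold changes of 0.96 to 6.28 (limma adjusted p = 0.0284 to 0.238), and Pon3, Car12 and Pllp were still called.

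Genes of the endoplasmic reticulum had mostly small positive values, and 16 of 102 rose, by 0.38 to 1.96 on the log2 scale. A list of 102 tested genes of translocation, folding, glycosylation and COPII transport, composed after some of its members had been seen, held 90 genes with a positive log2 fold change, and its median was 0.23. In 34 of the 102 every mutant lay above every control (4.67% of all genes), in none below, and 16 were called higher. Because the list was composed with values in view, these counts are a description. Its mean log2 level was 11.44, 11.40, 11.39 and 11.39 in the controls and 11.69, 11.74, 11.63, 11.66 and 11.69 in the mutants, without overlap. The spread within each group was narrower than for any other list drawn in the plot of list levels. Of the 25 tested genes of the unfolded protein and Atf4 response, 22 had a positive value, with a median of 0.32 and 4 called.

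Among the folding enzymes, Pdia6, a disulfide isomerase, was at 7237, 6318, 5814 and 7406 normalized counts in the controls and 9964, 10933, 8944, 10638 and 10488 in the mutants (log2 fold change 0.61, standard error 0.10, limma adjusted p = 0.0168). P4hb, the classical disulfide isomerase, was at 23787, 24737, 24241 and 25186 normalized counts in the controls and 49869.6, 35637, 39231, 35442 and 42964 in the mutants (log2 fold change 0.72, standard error 0.12, limma adjusted p = 0.0184). Both were higher in each mutant than in each control. Pdia3, which works with the lectin chaperones, rose by 0.38, Calr, one of those lectins, by 0.67, Hspa5, the main Hsp70 of the ER lumen, by 0.71, and its cochaperone Dnajb11 by 0.52. Ssr3 of the translocon-associated complex rose by 0.50, Stt3b, a catalytic subunit of oligosaccharyltransferase, by 0.66, and Dpagt1, which starts the lipid-linked oligosaccharide, by 0.49. Surf4, a cargo receptor for export from the ER, was at 9279, 8549.5, 8625 and 8751 normalized counts in the controls and 13375, 12358, 12729, 12244 and 13578 in the mutants (log2 fold change 0.55, standard error 0.07, limma adjusted p = 0.00738). Its values ran close together within each group. The coat components Sec23a and Sec24d rose by 0.44 and 1.17, the cycling protein Ergic1 by 0.61, and the retrieval receptor Kdelr3, which was low, by 1.96. Fkbp11, a prolyl isomerase of secretory cells, rose by 1.67 and Vcp, the ATPase that extracts proteins for degradation, by 0.83. Dnajb11, Dpagt1, Sec23a, Sec24d, Ergic1, Fkbp11 and Vcp were named after their values were seen. With the level of fibroblast markers as a covariate Pdia6 and Dnajb11 were still called, the absolute log2 fold changes of the 16 were 0.40 to 1.05 (limma adjusted p = 0.0271 to 0.192), and Kdelr3 went to 1.05, Fkbp11 to 1.02 and Sec24d to 0.60. Of these 16 calls that of Surf4 alone held in every fit without one library, and those lost numbered 11, 14, 15 and 12 without control libraries 1 to 4 and 9, 5, 10, 5 and 7 without mutant libraries 1 to 5, with limma adjusted p up to 0.15. With Y-linked level in the model, the absolute log2 fold changes were 0.31 to 2.01 (limma adjusted p = 0.136 to 0.66) and the median of the list was 0.17.

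**Figure D2:**
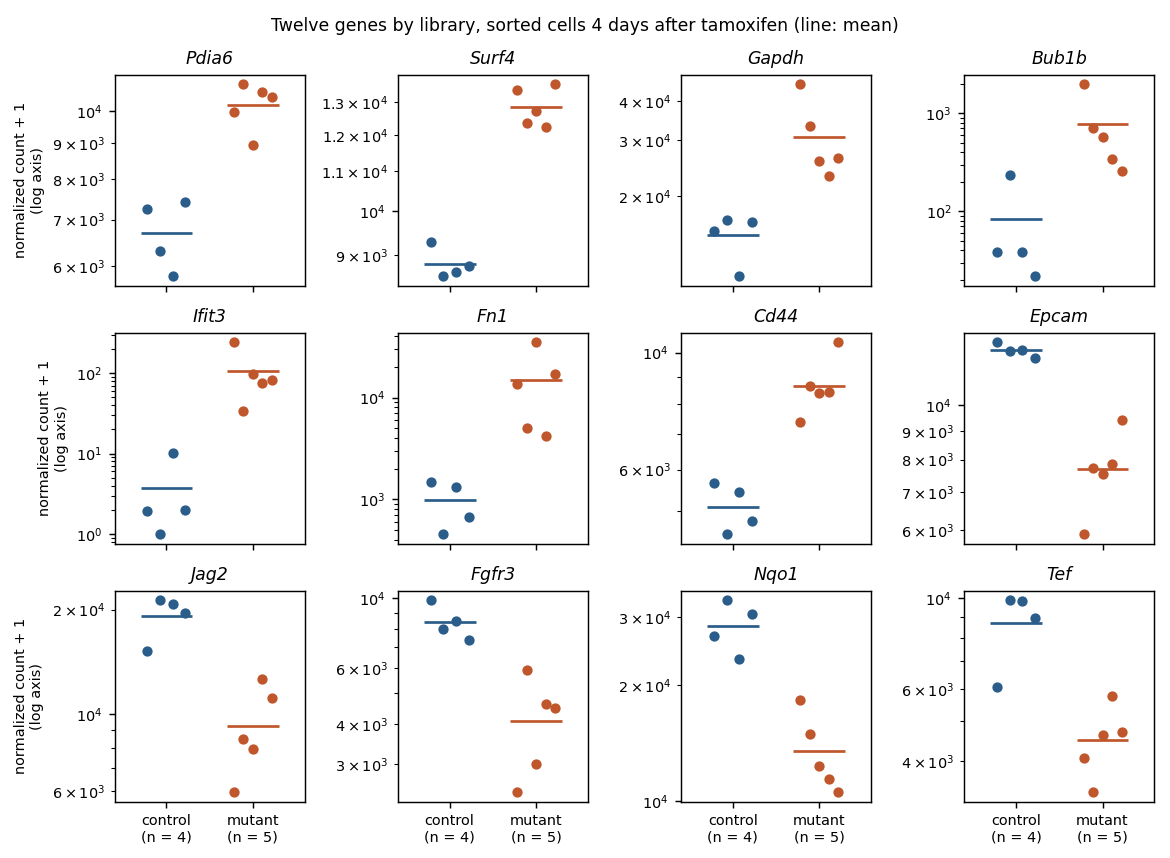
Normalized count + 1 on a log axis (y axis) of 12 genes in each control (blue, n = 4) and mutant library (orange, n = 5), with a line at the mean of each group. In all 12 genes shown, every mutant lay on one side of every control, with Pdia6, Surf4, Gapdh, Bub1b, Ifit3, Fn1 and Cd44 higher and Epcam, Jag2, Fgfr3, Nqo1 and Tef lower in mutants.

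Few enzymes of glucose use and of the citric acid cycle were called, and most had positive values. Of 27 genes of glycolysis, 19 had a positive log2 fold change, with a median of 0.37, 2 were called higher and 1 lower. Gapdh, the glycolytic dehydrogenase often taken as a constant reference, was at 15552, 16772, 11175 and 16608 normalized counts in the controls and 45181, 33249, 25868, 23121 and 26434 in the mutants (log2 fold change 1.01, standard error 0.21, limma adjusted p = 0.0323). The groups did not overlap, and mutant library 1 was the highest. Hk2, the inducible hexokinase, rose by 0.93. Pdk1, the kinase that holds pyruvate dehydrogenase back, fell in every mutant below every control, at 4546, 5705, 5123 and 4645 normalized counts in the controls and 3412, 3459.9, 3303, 3914 and 3867 in the mutants. Among 28 genes of the citric acid cycle and respiratory chain, 26 had a positive value, with a median of 0.20, and 2 were called higher. Mdh2, mitochondrial malate dehydrogenase, rose by 0.48. Pcx, which makes oxaloacetate from pyruvate, and Got2, the mitochondrial aspartate aminotransferase, both named after their values were seen, rose by 0.76 and 0.63. Of the hypoxia list, Egln3, an oxygen-sensing prolyl hydroxylase, rose by 0.91, Arnt2 by 2.80 from low counts, and Car12 as given above, while the list's median was 0.19. No call of the 8 named here held in every fit without one library, and those lost numbered 3, 6, 8 and 7 without control libraries 1 to 4 and 3, 3, 5, 2 and 3 without mutant libraries 1 to 5, with limma adjusted p up to 0.146. Arnt2 was called in 1 of these fits, lost in 4 and not tested in the rest. Hk2 went from a log2 fold change of 0.93 to 0.32 with the Y-linked covariate, and Gapdh from 1.01 to 0.94. Under the Y-linked covariate the absolute log2 fold changes were 0.32 to 2.43 (limma adjusted p = 0.383 to 0.806).

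Genes of the lysosome, autophagy and vesicle traffic had mostly positive values, with calls in both directions. Of 28 tested, 22 had a positive log2 fold change, with a median of 0.14, and 1 was called higher and 2 lower. Ctsh, a lysosomal cysteine protease, was at 9223, 11428, 6936 and 7789.9 normalized counts in the controls and 22646, 21583, 17610.3, 12605 and 13942 in the mutants (log2 fold change 0.99, standard error 0.21, limma adjusted p = 0.0354). Fuca1 and Man2b1, which trim sugars from glycoproteins and were named after their values were seen, rose by 0.55 and 0.55. Map1lc3a, an autophagosome protein, fell by 0.65 on the log2 scale. Of 21 tested subunits of the proton pump that acidifies lysosomes, a list composed after values were seen, 17 had a positive value, and Atp6v0c and Atp6v1b2 were called, with 0.76 and 0.49. Of these 6 calls none held in every fit without one library, and those lost numbered 5, 6, 6 and 6 without control libraries 1 to 4 and 5, 1, 4, 1 and 3 without mutant libraries 1 to 5, with limma adjusted p up to 0.132. Fitted with the Y-linked covariate, the absolute log2 fold changes were 0.43 to 0.90 (limma adjusted p = 0.326 to 0.59).

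Genes of mitosis had positive values throughout, and 3 passed the test. All 34 tested genes of mitosis and the spindle had a positive log2 fold change, with a median of 1.87. The list's mean log2 level was 6.94, 7.98, 6.95 and 6.15 in the controls and 10.59, 9.19, 8.73, 8.53 and 7.69 in the mutants. Mutant library 1 stood far above the rest, and mutant library 5 lay below control library 2. Bub1b, a kinase of the spindle checkpoint, was at 37.4, 234, 37.4 and 20.9 normalized counts in the controls and 1983, 706, 577, 338 and 258 in the mutants (log2 fold change 3.49, standard error 0.74, limma adjusted p = 0.0385). Kif20a, a kinesin of the central spindle, rose by 2.25 and Anln, the anillin of the contractile ring, by 1.99. Nuf2 and Ska1, which tie kinetochores to microtubules and were named after their values were seen, rose by 2.71 and 2.78. Mki67, the common mark of cycling cells, named with Top2a after its values were seen, was not called, at 149, 416, 140.3 and 97.8 normalized counts in the controls and 2942, 991, 662, 624 and 216 in the mutants (log2 fold change 2.15, standard error 0.67, limma adjusted p = 0.108). Top2a was not called either (log2 fold change 1.54, limma adjusted p = 0.112). Cenpm, a centromere protein also named after its values were seen, fell, from 1666, 1344, 1773 and 1591 in the controls to 1001, 380, 327, 277 and 372 in the mutants. Of 29 genes of DNA replication, 28 had a positive value with a median of 0.84, none was called, and the median was -0.20 under the Y-linked covariate. E2f2, a transcription factor of the G1/S transition, rose from 19.0, 14.7, 24.9 and 23.9 to 51.6, 40.8, 56.8, 40.3 and 65.1 normalized counts. Tubb6, a β-tubulin, rose by 1.52. Of the 8 calls named here none held in every fit without one library, and those lost numbered 7, 7, 8 and 8 without control libraries 1 to 4 and 6, 4, 7, 5 and 2 without mutant libraries 1 to 5, with limma adjusted p up to 0.137. The Y-linked covariate gave absolute log2 fold changes of 1.35 to 3.94 (limma adjusted p = 0.342 to 0.501).

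Interferon-induced genes had mostly positive values, and the 4 called of the list were low in controls. Of 41 tested, 34 had a positive log2 fold change, with a median of 0.61. The list's mean log2 level was 7.13, 7.52, 7.76 and 8.15 in the controls and 8.62, 7.82, 9.24, 9.29 and 8.34 in the mutants, so mutant library 2 lay among the controls. Ifit3, which helps to block viral RNA translation, was at 0.949, 0, 9.13 and 0.961 normalized counts in the controls and 241, 33.1, 95.6, 73.8 and 81.5 in the mutants (log2 fold change 5.12, standard error 0.72, limma adjusted p = 0.00854). Ifit1, its partner, rose by 2.32, Oas1a, a sensor of viral RNA, by 2.44, and Slfn2 and Batf2, named after their values were seen, by 2.0 and 1.87. The 25 genes of antigen presentation had 23 positive values and a median of 0.47, with 0 called by limma. With the level of fibroblast markers as a covariate the medians became -0.13 and -0.69. The part of stromal cells in these values was not tested.

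Members of a pair of gene families that lie side by side in the genome moved in opposite directions or by very large amounts, and all but Ifi202b and Trim34b were named after their values were seen. On chromosome 7, between 104218795 and 104507853 (RefSeq, GRCm38.p6), Trim12a, Trim5 and Trim30d were called higher and the neighbours Trim12c and Trim34b lower. Trim12a was at 52.96, 338, 58.0 and 61.2 normalized counts in the controls and 581, 489, 873, 747 and 639 in the mutants, and Trim34b at 114, 42.8, 127 and 149.9 normalized counts in the controls and 11.7, 9.85, 19.8, 12.9 and 12 in the mutants. Control library 2 held the highest Trim12a and the lowest Trim34b of the controls. Trim30d was at 0, 0.795, 0 and 1.19 normalized counts in the controls and 23.4, 33.1, 68.7, 117 and 25.6 in the mutants, which left it almost absent from the controls. Trim30a, Trim30b, Trim34a and Trim6 of the same stretch were not called. On chromosome 1, Ifi202b (173962569 to 173982844) was at 12.4, 7.06, 0.917 and 0.963 normalized counts in the controls and 204, 67.5, 573, 541 and 119 in the mutants (log2 fold change 5.62, standard error 0.80, limma adjusted p = 0.00941). Its neighbour Mndal was at 14.8, 75.5, 47.7 and 99.7 normalized counts in the controls and 379, 255, 546, 526 and 225 in the mutants (log2 fold change 2.88, standard error 0.52, limma adjusted p = 0.0216), and of the 11 tested genes of this family 2 were called, the lowest log2 fold change being -0.46 in Ifi208. These paralogs are near-identical in places, so reads may have been divided between them, and the values of single members are uncertain. Ifi202b is known to differ between inbred strains, and the part of genetic background was not tested. Of the 12 calls among interferon-linked genes 5 held in every fit without one library (Ifit3, Ifi202b, Slfn2, Trim30d and Trim34b), and those lost numbered 2, 5, 7 and 4 without control libraries 1 to 4 and 2, 1, 6, 1 and 1 without mutant libraries 1 to 5, with limma adjusted p up to 0.132. With Y-linked level in the model, the absolute log2 fold changes were 0.85 to 5.49 (limma adjusted p = 0.0284 to 0.509), with Mndal called. Under the fibroblast covariate the absolute values were 1.27 to 5.04 (limma adjusted p = 0.0231 to 0.211), with Trim30d and Trim34b called. Ifit3 and Trim30d reached the filter in the mutants alone, so the filter itself sets their direction in each of these fits.

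Of 25 chemokines and cytokines, 23 had a positive value, with a median of 0.98, and 1 was called. Cxcl5, a neutrophil-attracting chemokine of epithelia, was at 18.1, 13.1, 27.0 and 7.03 normalized counts in the controls and 247, 35.0, 1229.9, 144 and 547 in the mutants (log2 fold change 3.96, standard error 0.89, limma adjusted p = 0.0461). The mutants ranged widely, with mutant library 2 the lowest and mutant library 3 the highest. The receptors Il1rl2, for Il36 cytokines, and Il3ra rose by 1.09 and 1.29. Naip5, an inflammasome sensor, rose by 1.68 and Zc3h12a, an RNase that destroys cytokine mRNAs, by 0.82. Lgals3bp, a secreted galectin ligand, was at 4379, 5541, 5883 and 6249 normalized counts in the controls and 10652, 8807, 11303, 10975 and 9929.7 in the mutants (log2 fold change 0.91, standard error 0.12, limma adjusted p = 0.00614). These 5 were named after their values were seen. S100a4, a calcium-binding protein also typical of stromal cells, rose by 1.22. With the level of fibroblast markers as a covariate none of the 7 was called, at absolute log2 fold changes of 0.63 to 1.96 (limma adjusted p = 0.058 to 0.273). Of 7 calls 2 held in every fit without one library (Il1rl2 and Lgals3bp), and those lost numbered 3, 5, 5 and 5 without control libraries 1 to 4 and 2, 0, 3, 1 and 1 without mutant libraries 1 to 5, with limma adjusted p up to 0.128. Under the Y-linked covariate the absolute log2 fold changes were 0.83 to 3.68 (limma adjusted p = 0.0284 to 0.535), with Lgals3bp called.

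Few matrix genes were called. Of 23 tested genes of matrix and basement membrane 16 had a positive value (median 0.37) and 1 was called, and of 19 matrix proteases and inhibitors 18 were positive (median 0.38) and 1 was called. Many of the genes below are known from fibroblasts. Fn1, fibronectin, was at 1463, 453, 1308 and 669 normalized counts in the controls and 13725, 5035, 35080, 4142 and 17110.4 in the mutants (log2 fold change 3.67, standard error 0.62, limma adjusted p = 0.0189). Lum was at 159.9, 123, 201 and 373 normalized counts in the controls and 1949, 657, 2540.3, 2176 and 479 in the mutants (log2 fold change 2.70, standard error 0.54, limma adjusted p = 0.0303). For Fn1 mutant library 3, the one with the highest fibroblast markers, was also the highest. Col6a1 and Col6a2, chains of type VI collagen, rose by 2.71 and 2.66, Col5a3 by 4.16, and Lox, which crosslinks collagen, by 2.90. Itga1, a collagen-binding integrin, rose by 1.31, Cdh2, the N-cadherin of mesenchymal cells, by 2.16, Pcdh18 by 2.10 and Igf1 by 2.59. Plat, the tissue plasminogen activator, was at 794, 641, 690 and 1168 normalized counts in the controls and 5173, 2144, 3775, 2409 and 1786 in the mutants (log2 fold change 1.82, standard error 0.31, limma adjusted p = 0.0189). Here mutant library 1 was the highest. Col6a1, Col6a2, Col5a3, Lox, Pcdh18 and Igf1 were named after their values were seen. The fibroblast marker levels that moved with these genes were 7.61 to 8.94 in controls and 8.63 to 11.35 in mutants, and with this level as a covariate none of the 11 was called, at log2 fold changes of 1.01 to 2.64 (limma adjusted p = 0.0681 to 0.249). Lum is itself a member of that marker list, so the covariate takes out part of its rise by construction. Under the Y-linked covariate they were 1.55 to 3.63 (limma adjusted p = 0.0993 to 0.654), and calls lost numbered 4, 9, 10 and 6 without control libraries 1 to 4 and 2, 0, 4, 5 and 4 without mutant libraries 1 to 5, with limma adjusted p up to 0.128.

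Calls among genes of adhesion and the cell surface went both ways. Of 24 tested integrins and focal adhesion genes 16 had a positive value (median 0.14), with 2 called higher and 1 lower. Of 13 mucins and surface glycoproteins 7 were positive (median 0.14), with 0 called higher and 2 lower. Of 10 basal urothelial markers 7 were negative (median -0.31), with 1 called higher and 1 lower. Epcam, the epithelial cell adhesion molecule, was at 12922, 12454, 12539.7 and 12095 normalized counts in the controls and 5901, 7731, 7538, 7844 and 9405 in the mutants (log2 fold change -0.72, standard error 0.12, limma adjusted p = 0.0189). The controls lay within a narrow band above all mutants. Itgb6, an epithelial integrin that activates Tgf-β, was at 3330.2, 3370.4, 3719 and 4468 normalized counts in the controls and 2405, 2934, 2533, 2460.3 and 2586 in the mutants (log2 fold change -0.52, standard error 0.11, limma adjusted p = 0.034). Col17a1, the collagen of hemidesmosomes, fell by 1.34 on the log2 scale, as the only called gene of 9 tested in its complex, whose median was -0.23. With the Y-linked covariate the log2 fold change of Col17a1 was -0.67. Prkci, the atypical protein kinase C of apical polarity, was at 12334, 16005, 12151 and 12698 normalized counts in the controls and 7118, 8821, 6823, 7581 and 7134 in the mutants (log2 fold change -0.82, standard error 0.11, limma adjusted p = 0.00743). Evl, which extends actin filaments, was at 736, 1063, 1308 and 1053 normalized counts in the controls and 341, 411, 419.7, 472 and 329 in the mutants (log2 fold change -1.38, standard error 0.18, limma adjusted p = 0.00631), and Utrn, which links actin to the membrane, at 4823, 4337, 4358 and 5146 normalized counts in the controls and 2777, 3044, 2912, 3223 and 2965 in the mutants (log2 fold change -0.64, standard error 0.08, limma adjusted p = 0.0058). In these 3 genes the groups were apart and the mutants lay close together. Muc20, a membrane mucin, was low, from 116, 103, 20.9 and 26.8 in the controls to 0, 6.72, 1.02, 2.51 and 5.66 in the mutants. Other cytoskeletal and adhesion genes rose. Cd44, the hyaluronan receptor and the only basal marker called higher, was at 5651, 4527, 5430 and 4793 normalized counts in the controls and 7372, 8642, 8365, 8432 and 10465 in the mutants (log2 fold change 0.76, standard error 0.11, limma adjusted p = 0.0116). Parva, which joins integrins to actin, rose by 0.79, and Tpm4, a tropomyosin named after its values were seen, by 0.63. Desmosome genes (11 tested, median 0.07) and tight junction genes (18 tested, median 0.14) held no called member. Of these 10 calls 4 held in every fit without one library (Cd44, Evl, Prkci and Utrn), and those lost numbered 2, 5, 5 and 5 without control libraries 1 to 4 and 3, 0, 5, 2 and 2 without mutant libraries 1 to 5, with limma adjusted p up to 0.143. Muc20, which reached the filter in the controls alone, was not tested in the fits without a control and is not counted there. The filter itself sets the direction of Muc20. Fitted with the Y-linked covariate, the absolute log2 fold changes were 0.37 to 5.17 (limma adjusted p = 0.184 to 0.671).

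Some genes of squamous and terminal differentiation rose, and unevenly among the mutants. Sprr2g, a small proline-rich protein of the cornified envelope, was at 9.42, 9.13, 6.26 and 9.42 normalized counts in the controls and 5632, 968, 262, 63.1 and 90.9 in the mutants (log2 fold change 5.35, standard error 1.14, limma adjusted p = 0.0387). The mutants spanned a wide range, with mutant library 1 the highest. Sprr2g reached the filter in the mutants alone, so the filter itself sets its direction. Tgm1, which crosslinks that envelope, was at 101, 90.2, 146 and 154 normalized counts in the controls and 661, 331, 436, 453 and 205 in the mutants (log2 fold change 1.69, standard error 0.33, limma adjusted p = 0.0284). Krt78, a type II keratin, rose by 1.02, the connexin Gjb6 by 0.99 and the transcription factor Sp6 by 1.50, the last 2 named after their values were seen. With the Y-linked covariate the log2 fold change of Gjb6 was 0.51. Of 14 tested genes of the envelope list, 12 had a positive value, with a median of 0.60. Fabp4 and Krt20 were the called members of 12 superficial markers, all of which had positive values. Fabp4 was the only one of 7 calls in this group to hold in every fit without one library, and those lost numbered 4, 5, 6 and 6 without control libraries 1 to 4 and 3, 2, 4, 1 and 2 without mutant libraries 1 to 5, with limma adjusted p up to 0.138. The Y-linked covariate gave absolute log2 fold changes of 0.51 to 5.21 (limma adjusted p = 0.128 to 0.635).

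Of 14 called signalling genes described here, 13 fell. In the Notch pathway, by which neighbouring cells set each other's fate, both called ligands fell. Jag2 was at 15211, 21266, 20761 and 19554 normalized counts in the controls and 5960.2, 8501, 7905, 12633 and 11149 in the mutants (log2 fold change -1.09, standard error 0.21, limma adjusted p = 0.0269), and Dll1 at 985, 1146, 1438 and 1650.4 normalized counts in the controls and 460.4, 841, 610, 841 and 588 in the mutants (log2 fold change -0.97, standard error 0.22, limma adjusted p = 0.0447). No mutant reached the lowest control in either. Maml2, a coactivator of Notch, fell by 0.66 on the log2 scale. The pathway's 21 tested genes had a median of -0.21, with 13 negative. Fgfr3, the growth factor receptor often mutated in bladder cancer, was at 9844, 7969, 8443 and 7401 normalized counts in the controls and 2441, 5929, 2994, 4621 and 4502 in the mutants (log2 fold change -1.10, standard error 0.24, limma adjusted p = 0.0397). Spry1, a feedback inhibitor of such receptors, was at 1424, 1390, 1784 and 2209 normalized counts in the controls and 646, 1054, 559, 645 and 761 in the mutants (log2 fold change -1.22, standard error 0.20, limma adjusted p = 0.0177). Both fell without overlap, while the 20 tested genes of the list had a median of 0.06. In the Wnt pathway the receptor Fzd7 rose by 0.79 and Lgr4, the receptor for R-spondins, fell by 0.53 on the log2 scale. Epha4, an ephrin receptor, had a log2 fold change of -1.06, Ntn4, a netrin of basement membranes, of -0.95, Ngef, an exchange factor linked to ephrin receptors, of -1.49, and the kinase Hunk of -0.84. Vav3, an exchange factor for small GTPases, P2ry1, a receptor for ADP, and Rictor, a subunit of mTORC2, named after their values were seen, had -0.85, -0.86 and -0.45. None of these 14 calls held in every fit without one library, and those lost numbered 4, 13, 14 and 11 without control libraries 1 to 4 and 7, 2, 8, 3 and 5 without mutant libraries 1 to 5, with limma adjusted p up to 0.139. With Y-linked level in the model, the absolute log2 fold changes were 0.25 to 1.34 (limma adjusted p = 0.209 to 0.681).

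Clock genes had mostly negative values, and 3 were called. Of 16 tested, 11 were negative, with a median of -0.55 against 0.00 for all genes. Nfil3, a repressor at D-box elements, was at 219.7, 258, 203 and 198 normalized counts in the controls and 515, 563, 992, 1105 and 685 in the mutants (log2 fold change 1.75, standard error 0.24, limma adjusted p = 0.00801). Tef, an activator at the same elements, was at 6066, 9863, 9822 and 8945 normalized counts in the controls and 4063, 3357, 4621, 5761 and 4705 in the mutants (log2 fold change -0.94, standard error 0.18, limma adjusted p = 0.0284). Nr1d2, a repressor of the clock's positive arm, was at 4142, 7799, 7749 and 7222 normalized counts in the controls and 3247, 3201, 3043, 3764 and 3161 in the mutants (log2 fold change -0.99, standard error 0.18, limma adjusted p = 0.0216). Nfil3 rose in every mutant and the others fell in every mutant, and in Tef and Nr1d2 control library 1 was the control nearest to the mutants. Dbp (log2 fold change -1.67), Per2 (-0.99) and Cry2 (-0.68) were not called, with limma adjusted p of 0.0804, 0.0784 and 0.0549, and Arntl had 0.76 (0.0988). Arntl2, a partner of Clock, rose by 1.15, and Dio2, which activates thyroid hormone, had a log2 fold change of -1.56. No hour of collection is given for a library. The median under the Y-linked covariate was -0.27. There the log2 fold change was 1.74 for Nfil3, -0.45 for Tef and -0.34 for Nr1d2.

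Among other regulators, Satb1, which organises chromatin loops, was at 2242, 2277, 2137 and 2474 normalized counts in the controls and 647, 1074, 904, 1330.2 and 1402 in the mutants (log2 fold change -1.14, standard error 0.21, limma adjusted p = 0.0218). Ahr, the receptor for aryl hydrocarbons, was at 6592, 8142, 10259.9 and 10253 normalized counts in the controls and 2824, 3743, 3415, 5230.2 and 4902 in the mutants (log2 fold change -1.14, standard error 0.20, limma adjusted p = 0.0211). No mutant overlapped a control in either. Mecom, Tox3, Sall3 and the homeobox gene Msx2 had log2 fold changes of -0.72, -1.48, -2.82 and -0.55. Of 34 nuclear receptors and coregulators, 26 had a negative value, with a median of -0.17, and Nr1d2 alone was called. Pparg itself, whose transgene reads the table does not separate, was at 9617, 9999, 9821 and 9381 normalized counts in the controls and 6646, 9032, 6111, 7863 and 8458 in the mutants and was not called (log2 fold change -0.36, standard error 0.12, limma adjusted p = 0.126). Ahr, Mecom, Tox3, Sall3, Msx2, Arntl2 and Dio2, and the uncalled clock genes, were named after their values were seen. Of the 11 calls of clock and regulator genes that of Nfil3 held in every fit without one library, and those lost numbered 3, 10, 9 and 10 without control libraries 1 to 4 and 4, 2, 10, 1 and 3 without mutant libraries 1 to 5, with limma adjusted p up to 0.149. Under the Y-linked covariate the absolute log2 fold changes were 0.23 to 2.89 (limma adjusted p = 0.278 to 0.787).

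Of 36 genes of the Nrf2 and glutathione list, 1 was called higher and 2 lower, where 1.77% and 1.08% of all genes were, with 22 positive values and a median of 0.06. Of 27 tested genes of the list of cytochromes P450, UGT enzymes and sulfotransferases, 12 had a positive and 15 a negative value, with a median of -0.03, and 2 were called lower (Ephx1 and Adh7). Nqo1, a quinone reductase and the textbook target of Nrf2, was at 26788, 33119.8, 23321 and 30558 normalized counts in the controls and 18259, 14899, 12291, 11367 and 10537 in the mutants (log2 fold change -1.10, standard error 0.17, limma adjusted p = 0.0146). Gclc, which sets the rate of glutathione synthesis, was at 10781, 11972, 11956 and 11045 normalized counts in the controls and 8559.6, 6131, 6816, 7194 and 9102 in the mutants (log2 fold change -0.61, standard error 0.12, limma adjusted p = 0.0304). Both fell below every control, whereas Mgst3, a microsomal glutathione transferase, rose by 0.71. Ephx1, microsomal epoxide hydrolase, was at 17724, 17992, 13660.2 and 13328 normalized counts in the controls and 9144, 10517, 10526, 9806 and 9926 in the mutants (log2 fold change -0.64, standard error 0.11, limma adjusted p = 0.0214). Adh7, a retinol-oxidising alcohol dehydrogenase of epithelia, had a log2 fold change of -1.34, Cbr2, a carbonyl reductase, of -0.89, and Retsat, retinol saturase, of -1.43. Ugt1a1, which conjugates bilirubin, and As3mt, which methylates arsenic, rose by 1.71 and 1.03 and, with Retsat, were named after their values were seen. The Ugt1a genes share exons, so the value of Ugt1a1 is uncertain. None of these 9 calls held in every fit without one library, and those lost numbered 6, 8, 7 and 7 without control libraries 1 to 4 and 1, 0, 4, 2 and 2 without mutant libraries 1 to 5, with limma adjusted p up to 0.121. Fitted with the Y-linked covariate, the absolute log2 fold changes were 0.53 to 1.75 (limma adjusted p = 0.209 to 0.589).

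Of 32 tested channels and carriers 2 were called higher and 2 lower (median 0.15), and of 24 solute carriers 1 was called higher and 2 lower (median 0.12). Piezo1, a stretch-activated channel, was at 2885, 2426, 2786 and 2597 normalized counts in the controls and 4406, 3628, 3986, 4615 and 4169.7 in the mutants (log2 fold change 0.64, standard error 0.09, limma adjusted p = 0.0112). All mutants exceeded all controls. Slc40a1, ferroportin, which exports iron, was at 4391, 3871, 4242 and 4269 normalized counts in the controls and 2888, 2801, 2800.1, 2783 and 1844 in the mutants (log2 fold change -0.69, standard error 0.14, limma adjusted p = 0.0288). Kcnk2, a background potassium channel, was at 582, 591, 333 and 365 normalized counts in the controls and 103, 110.1, 112, 190.3 and 186 in the mutants (log2 fold change -1.73, standard error 0.28, limma adjusted p = 0.0153). Both fell in every mutant. Fxyd4, a modulator of the sodium pump, had a log2 fold change of -1.53, Clca3a2 one of -1.35 and Slco3a1, an organic anion carrier, one of -0.97, while Clca1 rose by 1.63 from low counts. Slc22a5, the carnitine carrier, and Slc16a9, a monocarboxylate carrier, both named after their values were seen, rose by 0.46 and 1.13. Among genes of cell death, Bcl2, which protects mitochondria, was at 1822, 1479.9, 1237 and 1407 normalized counts in the controls and 522, 808, 822, 1103 and 591 in the mutants (log2 fold change -0.99, standard error 0.22, limma adjusted p = 0.0422). Ripk3, a kinase of necroptosis, rose by 1.30 and Bok, a proapoptotic relative of Bcl2, by 2.07, while Rrm2b, a p53-induced subunit of ribonucleotide reductase, fell by 0.56 on the log2 scale. Bok and Rrm2b were named after their values were seen. The 27 tested genes of apoptosis had a median close to 0. Of the 9 transport calls 2 held in every fit without one library (Piezo1 and Slc16a9), and those lost numbered 4, 5, 6 and 4 without control libraries 1 to 4 and 1, 1, 3, 2 and 2 without mutant libraries 1 to 5, with limma adjusted p up to 0.132. Of the 4 cell death calls none did, and those lost numbered 2, 4, 4 and 3 without control libraries 1 to 4 and 3, 2, 3, 1 and 2 without mutant libraries 1 to 5, with limma adjusted p up to 0.132. The Y-linked covariate gave absolute log2 fold changes of 0.52 to 2.10 (limma adjusted p = 0.209 to 0.467) for transport and 0.63 to 2.82 (limma adjusted p = 0.162 to 0.718) for cell death.

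**Figure D3:**
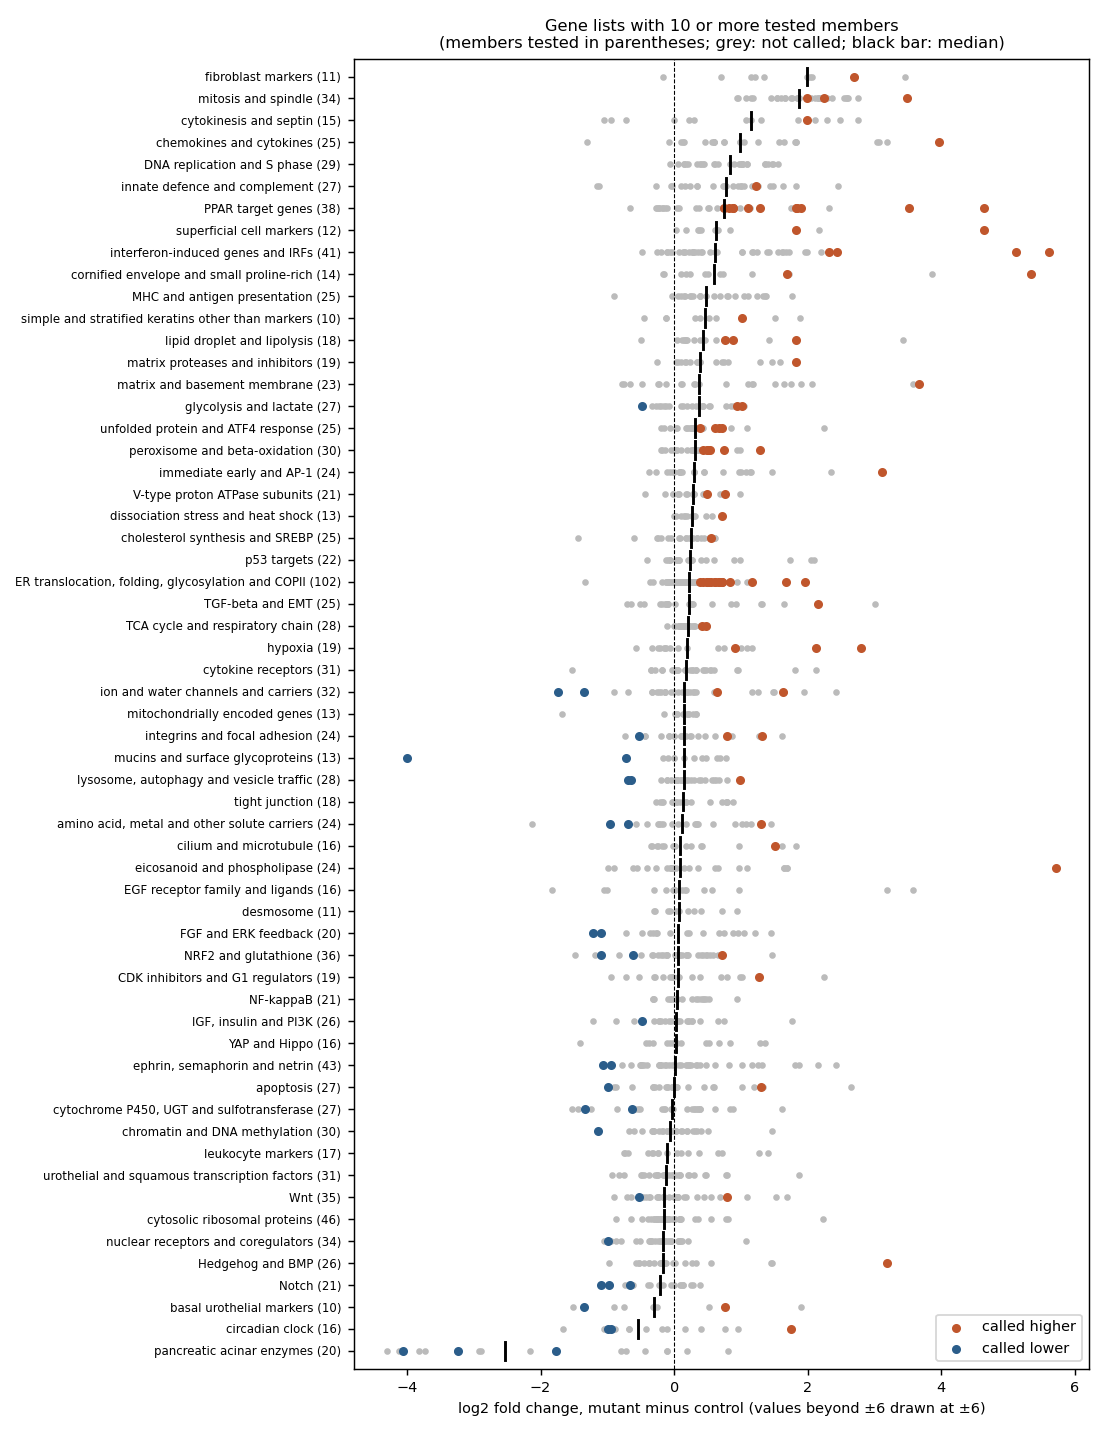
Log2 fold change of mutants minus controls (x axis) for every tested member of each gene list with at least 10 tested members (y axis, number tested in parentheses). Grey points were not called, orange points were called higher and blue points called lower by limma, the black bar is the list's median and the dashed line the median over all genes, 0.00. Mitosis (1.87) and fibroblast markers (2.0) had the highest medians and pancreatic acinar enzymes (-2.53) the lowest.

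The strongest falls by the same rule, with the limit on the mean applied to the controls, were Utrn, Evl, Prkci, Trim34b, Fxyd4, Ngef, Hunk and Cbr2, given above, and 7 others. Hs3st6, which adds a sulfate to heparan sulfate chains, was at 283, 201, 344 and 150.3 normalized counts in the controls and 53.5, 40.7, 37.5, 42.8 and 33.4 in the mutants (log2 fold change -2.47, standard error 0.29, limma adjusted p = 0.00275). Lancl1, a glutathione-binding protein, was at 11844, 11695, 14852 and 13646 normalized counts in the controls and 5446, 8769, 5537, 5705 and 6578 in the mutants (log2 fold change -1.04, standard error 0.15, limma adjusted p = 0.00997). The groups were apart in both. Zrsr1, a retrogene for a splicing factor, had a log2 fold change of -1.49, Rnaset2a, an RNase with a near-identical neighbour, of -0.71, Tmtc4, an ER membrane protein, of -0.77, Fam149a of -0.81 and Ccdc82 of -0.65. The calls of Hs3st6, Rnaset2a and Lancl1 held in every fit without one library, and those lost numbered 0, 2, 4 and 0 without control libraries 1 to 4 and 0, 0, 0, 0 and 0 without mutant libraries 1 to 5, with limma adjusted p up to 0.055. With Y-linked level in the model, the absolute log2 fold changes were 0.51 to 2.75 (limma adjusted p = 0.116 to 0.395).

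Among transcripts of the exocrine pancreas 3 fell, all of them low. Of 20 tested acinar enzymes, 18 had a negative value, with a median of -2.53, and in 12 every mutant lay below every control (4.51% of all genes). A gene could enter this list through the controls alone, as Amy2b did, and for such a gene the filter itself sets the direction. These counts are therefore a description and no test. Cela2a, an elastase, was at 55.9, 51.5, 68.1 and 50.5 normalized counts in the controls and 23.9, 13.4, 8.67, 11.6 and 28.7 in the mutants (log2 fold change -1.77, standard error 0.38, limma adjusted p = 0.0377). Amy2b, an amylase, was at 37.2, 30.6, 64.7 and 33.8 normalized counts in the controls and 8.74, 8.01, 0, 0 and 0 in the mutants (log2 fold change -4.06, standard error 0.81, limma adjusted p = 0.0308), and Try5, a trypsinogen, at 49.7, 42.2, 76.0 and 28.3 normalized counts in the controls and 10.8, 15.5, 1.44, 2.08 and 1.07 in the mutants (log2 fold change -3.25, standard error 0.67, limma adjusted p = 0.0342). Mutant libraries 1 and 2 lay between the controls and mutant libraries 3 to 5 for Amy2b. Try5 belongs to a family of near-identical trypsinogens and is uncertain. Summed over the list, control levels ran from 3010.1 to 3999 and mutant levels from 3067 to 3600 normalized counts. Most of each sum came from Cela1, an elastase also known outside the pancreas and named after its values were seen, which was at 2269.6, 3324, 2000 and 2588 normalized counts in the controls and 2715, 3121, 2568, 2634 and 3357 in the mutants and was not called, so the sums say little about the other members. None of the 3 calls held in every fit without one library, and those lost numbered 2, 2, 2 and 2 without control libraries 1 to 4 and 0, 1, 3, 3 and 2 without mutant libraries 1 to 5, with limma adjusted p up to 0.123. Amy2b was not tested in the fits without a control, so the losses there are those of Cela2a and Try5. Under the Y-linked covariate Cela2a, Amy2b and Try5 had log2 fold changes of -1.77, -3.96 and -3.35, none of them called, and the list's median was -2.44. With a filter at 50 normalized counts the median was -0.30, over the fewer members that pass it.

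Pseudogenes were among the largest falls. Of 743 pseudogenes tested, those with identical values in every library counted once, 23 were called lower and 4 higher (3.63%, against 2.85% of 14960 protein-coding genes), and their median log2 fold change was -0.19. Rps2-ps13 was at 12243, 14909, 27849 and 12924 normalized counts in the controls and 28.8, 16.6, 37.2, 5.52 and 18.9 in the mutants (log2 fold change -9.70, standard error 0.47, limma adjusted p = 6.88e-06). Its parent Rps2, a protein of the small ribosomal subunit, was at 13174, 16148, 294 and 13574 normalized counts in the controls and 28323, 32619, 21700, 21809 and 23590.5 in the mutants and was not called (log2 fold change 2.23, standard error 1.04, limma adjusted p = 0.258). That value rests on control library 3, and without it the log2 fold change of Rps2 was 0.83, and under the Y-linked covariate it was 0.94. The pseudogene was higher and the parent lower in every control than in every mutant, and control library 3 held nearly all of its counts in the pseudogene. Summed over Rps2 and 10 pseudogenes, the counts were 27742, 34292, 30749 and 28876 in the controls and 28477, 32797, 21894, 21976 and 23786 in the mutants, and the groups overlapped.

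Other families were split in a like way. Atp6v0c-ps2 was at 947, 935, 1086 and 778 normalized counts in the controls and 1.70, 7.66, 10.2, 6.87 and 0 in the mutants, while Atp6v0c, called higher above, was at 9819, 8936, 6892 and 8654 normalized counts in the controls and 17048, 17225, 13132, 10918 and 14765 in the mutants. The log2 fold change of Atp6v0c with its pseudogenes added was 0.61, against 0.76 without them. Tcea1-ps1 was listed at 233, 287, 175 and 232 in the controls and at 0 in all 5 mutants, and Tcea1 with its pseudogene had a log2 fold change of 0.02. Rps18 with its pseudogenes had one of -0.15, although Rps18-ps5 had -7.22 and Rps18-ps6 -3.23. Rpl35a-ps2 and 4 further called pseudogenes had identical values in every library and count as 1 observation. Glo1-ps and Mrpl48-ps showed the same contrast, with the parents Glo1 and Mrpl48 at 0.30 and 0.34 and not called. These genes, which can share reads with a parent, were named after their values were seen, and their values are uncertain. Each of the 9 pseudogenes named was called in every fit without one library in which it was tested. However, Tcea1-ps1, Glo1-ps, Mrpl48-ps and Rpl35a-ps2 reached the filter in the controls alone. They were tested in the 5 fits without a mutant and in none without a control, so their stability to the controls is not known. For these genes the filter itself sets the direction, with the Y-linked covariate as well as without it. Under the Y-linked covariate all 9 were called and stayed lower in mutants, with absolute log2 fold changes of 3.14 to 9.32 (limma adjusted p = 0.000494 to 0.0478). All 4 controls, control library 1 included, were on the same side, which the filter requires of the genes that reached it in the controls alone. The part of genetic background or of read assignment was not tested.

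**Figure D4:**
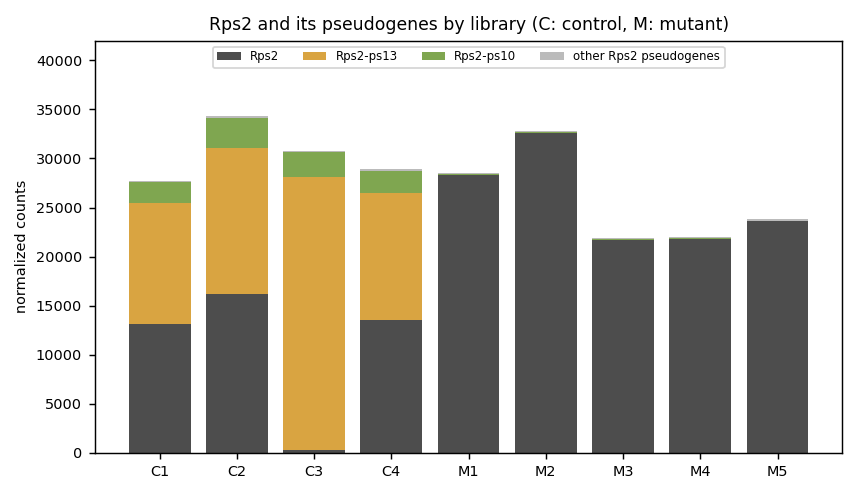
Normalized counts (y axis, from 0) of Rps2, Rps2-ps13, Rps2-ps10 and the other Rps2 pseudogenes, stacked, in each of the 9 libraries (x axis; C1 to C4 are control and M1 to M5 mutant libraries). The pseudogenes take a large share in all controls and almost none in the mutants, while the full height of the bars lies between 27742 and 34292 in controls and between 21894 and 32797 in mutants.

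Several lists held no called gene by limma at an adjusted p under 0.05. The 46 tested ribosomal proteins had a median of -0.15, the p53 targets one of 0.23 (17 of 22 positive), among them Cdkn1a at 7555, 5152, 3978 and 2299 normalized counts in the controls and 14825, 10482, 7416, 7759 and 5198 in the mutants (log2 fold change 0.98, limma adjusted p = 0.165, and 0.18 under the Y-linked covariate). Genes of NF-κB (0.05), of Yap and Hippo signalling (0.03), of the Egf receptor family (0.07) and mitochondrially encoded genes (0.15) had medians close to that of all genes, although under the Y-linked covariate that of NF-κB was 0.40. Trp63, the regulator of basal identity, was at 27230, 34364, 36766 and 34480.2 normalized counts in the controls and 12606, 21589, 17541, 27800.3 and 21961 in the mutants and was not called (log2 fold change -0.75, standard error 0.21, limma adjusted p = 0.0835). Of 31 tested urothelial and squamous transcription factors none was called. Other members with the smallest p of their lists were H2-Q7 of antigen presentation (1.76, 0.0562), Areg, a ligand of the Egf receptor (3.18, 0.0579), Nrg1, a ligand of its relatives (-1.83, 0.0664), Ajuba of the Hippo pathway (-1.41, 0.0718) and the receptor Il1r1 (0.94, 0.0767), given as log2 fold change and limma adjusted p. The log2 fold changes under the Y-linked covariate were -0.47 for Trp63, 2.14 for H2-Q7, 1.69 for Areg, -2.40 for Nrg1, -1.29 for Ajuba and 0.87 for Il1r1. In the same order, the fibroblast covariate gave -0.83, 0.74, 3.74, -0.37, -0.74 and 0.36.

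In 4 further lists 1 or more members were called. Pla2g4f, an epithelial phospholipase A2, was at 7.33, 0, 0 and 0 normalized counts in the controls and 417, 136, 59.1, 32.3 and 49.4 in the mutants (log2 fold change 5.72, standard error 0.87, limma adjusted p = 0.0126). Scap, which escorts Srebp to the Golgi, was at 6212, 6639.6, 6704 and 5269.6 normalized counts in the controls and 8596, 8612, 8987, 9353 and 10048 in the mutants (log2 fold change 0.56, standard error 0.10, limma adjusted p = 0.0189), the only one of 25 genes of cholesterol synthesis to be called. Both were higher in each mutant than in each control. Egr1, an immediate early gene that responds to growth factors and to handling of cells, was at 78.3, 217, 156 and 1023 normalized counts in the controls and 2342, 910.3, 4316, 1501 and 2254 in the mutants (log2 fold change 3.12, standard error 0.68, limma adjusted p = 0.0417). Control library 4 overlapped the mutants. Fabp5, the epidermal fatty acid binding protein, was at 2208, 2331, 1717 and 2583 normalized counts in the controls and 14611, 7494, 5721, 6735 and 8560.1 in the mutants (log2 fold change 1.90, standard error 0.25, limma adjusted p = 0.00539), one of 11 called among 38 tested Ppar target genes, whose median was 0.75. Calls lost numbered 1, 3, 3 and 1 without control libraries 1 to 4 and 1, 0, 1, 1 and 1 without mutant libraries 1 to 5, with limma adjusted p up to 0.132. Under the Y-linked covariate the absolute log2 fold changes were 0.55 to 4.65 (limma adjusted p = 0.184 to 0.416), the largest being that of Egr1. With the fibroblast covariate Egr1 had 1.49 (limma adjusted p = 0.254) and Scap 0.57, while Pla2g4f (7.28) and Fabp5 (2.22) were still called. Pla2g4f reached the filter in the mutants alone, so the filter itself sets its direction. Of 13 genes of dissociation stress and heat shock, 12 had a positive value, with a median of 0.27 and 1 called.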

How the data were processed

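The authors quantified RNA-seq reads of sorted cells with kallisto 0.44.0 and deposited normalized counts per gene made with DESeq2 1.18, a signal that is not whole. The submitters' processing notes name GRCm38 and GRCh38 without saying which files used which, and the transcript annotation of the kallisto index is not given in the sources used here. Of the values under 30, 9.26% were whole multiples of a library's commonest low value within 0.01, so reads were not recovered and the depth reached is unknown. Deposited columns of the authors' own comparisons (fold changes, p-values) were not used. With limma 3.58.1 in R 4.3.3, log2(normalized count + 1) of the genes reaching 10 normalized counts in 4 or more libraries was fitted on genotype (lmFit, eBayes with trend), with Benjamini-Hochberg adjustment at 0.05, after the scripts had been tested on simulated data. Tables were made with pandas 2.3.3 and, for plots, matplotlib 3.10.9, under Python 3.11.15. Named were the 15 strongest calls each way, up to 6 calls of a list, up to 3 members with the smallest p of lists without a call, and set genes of the study. Some genes that the rule names are not reported here. Other genes were chosen after their values were seen. Members, lists and tests were chosen with earlier results of these data known. Nothing in the columns ties a library to a mouse, so p-values measure the spread between libraries. Alternatives were another pseudocount, filter, variance model, weighting, scaling, the smaller table of 3 against 3 libraries, covariates and leaving out each library. Promoters are from RefSeq, GRCm38.p6.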

Additional observations from a re-analysis of the deposited data

Results flagged for a closer look

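In some groups of libraries 1 library stood apart from the rest by Dixon's criterion at 95%, which chance meets in about 1 in 20 groups. Of 532 groups tested, 31 did so. Values are means of a list or single values of log2(normalized count + 1).

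Control library 1 stood apart from the other controls in several lists. Its Y-linked genes were at 5.59 against 11.05 to 11.11, its genes of DNA replication at 9.45 against 8.12 to 8.34, its genes of cholesterol synthesis at 11.43 against 10.61 to 10.71 and its clock genes at 9.80 against 10.25 to 10.33. Among single genes, Nr1d2 was at 12.02 against 12.82 to 12.93, Vcp at 13.44 against 13.95 to 14.02, Mrpl48-ps at 5.99 against 5.24 to 5.32, and Pla2g4f at 3.06 with 0 in the other controls.

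Control library 2 was apart in erythroid markers (4.68 against 2.52 to 2.76), keratins other than markers (7.32 against 7.88 to 7.99), Notch genes (8.37 against 8.11 to 8.14), Trim12a (8.40 against 5.75 to 5.96) and Prkci (13.97 against 13.57 to 13.63). Control library 3 was apart in acinar enzymes (5.06 against 4.42 to 4.51), Sprr2g (2.86 against 3.34 to 3.38) and Rps2 (8.20 against 13.69 to 13.98). Control library 4 was apart in the FGF list (8.35 against 7.53 to 7.63), the ephrin list (9.45 against 9.22 to 9.25), Smim3 (8.66 against 8.20 to 8.26) and Ajuba (13.32 against 12.54 to 12.66).

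Mutant library 1 was the highest of the mutants in Fabp4 (14.90 against 12.28 to 12.90), Tpm4 (13.36 against 12.65 to 12.80), Cenpm (9.97 against 8.12 to 8.57) and Glo1-ps (2.58 with 0 in the other mutants), and the lowest in Pon3 (11.13 against 11.39 to 11.48). Mutant library 4 was the lowest in Pcx (12.65 against 13 to 13.06), Arntl2 (8.99 against 9.52 to 9.68) and Sall3 (2.21 against 4.88 to 5.30), and the highest in Trim12c (8.002 against 7.39 to 7.49). Mutant library 5 was the highest in Il3ra (8.54 against 7.65 to 7.85) and the lowest in Slc40a1 (10.85 against 11.44 to 11.50).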

How the results depend on the processing

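limma called 467 genes, 290 higher and 177 lower. It called 269 (161 and 108) without a trend, 1054 (622 and 432) with array weights, 147 (83 and 64) in the separately normalized table of 3 against 3 libraries, 26 (9 and 17) with the Y-linked covariate, 2 (1 and 1) in the libraries with low Y-linked genes and 171 (97 and 74) with the fibroblast covariate, which was chosen after seeing the data. Quantile normalization gave 270 higher and 287 lower, so the share of higher calls was 48.5% instead of 62.1%. Without one library the calls ranged from 84 to 596, from 61 to 374 higher and from 23 to 222 lower, fewest without control library 3 and most without mutant library 2. Other pseudocounts, filters, the robust fit and upper quartile scaling kept each count within 1.5 times. Every one of the 467 calls kept its direction in each fit that tested it. This is no test, because in 455 of them the groups did not overlap, and leaving out a library could not reverse these. Of the 467, 64 were called in all 9 fits without one library, and 78 in all of those fits that tested them. The cause of the changes in counts was not tested, beyond the fewer libraries in some fits. Some list medians changed sign. With the Y-linked covariate DNA replication went from 0.84 to -0.20 and cholesterol synthesis from 0.25 to -0.39. With the fibroblast covariate the ribosomal proteins went from -0.15 to 0.22. No paired analysis was possible because the columns do not carry the replicate numbers of the labels. The depth reached is unknown, so values near 0 have no limit of detection.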
